A study of Homo sapiens with 40 samples.

Results

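The 8 genes described here encode enzymes of the mevalonate pathway, the route from acetyl-CoA to the prenyl diphosphates, in a human breast cancer cell line treated with drugs that act on that route. They are ACAT2, HMGCS1, MVK, PMVK, MVD, IDI1, FDPS and GGPS1. They were picked by gene symbol, with earlier results of these data known, from the 18417 genes that had a probe set naming only that gene. Each member had 1 probe set of its own on the array, and 2 further probe sets named FDPS together with the pseudogene FDPSP2, so the members covered 10 of 33297 probe sets.

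The cells were MDA-MB-231, an established line from a human breast cancer with no oestrogen receptor, grown in medium with fetal bovine serum. Their RNA was hybridised to 40 whole-transcript arrays, 4 in each of 10 groups. In lot I, cells received 30 µM zoledronate, 2 µM fluvastatin or solvent for 12 h or for 24 h. In lot II, cells received 30 µM zoledronate or solvent for 48 h, or 100 µM zoledronate or solvent for 24 h. The labels do not say what a lot is, and they describe the 4 arrays of a group as independent replicates of 1 line. Each treated array was compared with the solvent control of the same lot, time and replicate number. Values are log2 signals, so a difference of 1 is a doubling, and ± marks a standard error of a difference or, where stated, an SD over 4 arrays.

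Acetyl-CoA is joined by ACAT2 and HMGCS1 into HMG-CoA, which is reduced to mevalonate in the early step that statins such as fluvastatin inhibit. MVK, PMVK and MVD turn mevalonate into isopentenyl diphosphate, and IDI1 converts that into its isomer. FDPS, the enzyme that zoledronate and related bisphosphonates inhibit, condenses these units into farnesyl diphosphate, from which sterols are made, and GGPS1 extends it to geranylgeranyl diphosphate. Both diphosphates anchor small GTPases to membranes, and transcription of the pathway is known to rise through the SREBP factors when cells run short of sterols.

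The sequences in front of 3 of these genes are given with CCAAT and GC box letters marked. They are for HMGCS1 and MVD, which rose in the arrays, and for FDPS, which did not pass the test in any of the 6 comparisons with all arrays. Each is the 250 bases upstream of a RefSeq transcription start in GRCh38.p14, written 5′ to 3′ on the strand of the gene. HMGCS1 is on the minus strand at chr5:43313413-43313662 and is the first of 2 start sites listed for the gene, MVD is on the minus strand at chr16:88663092-88663341, and FDPS is on the plus strand at chr1:155308616-155308865. Capitals mark the CCAAT box (CCAAT, or ATTGG on the other strand) and the GC box (GGGCGG, or CCGCCC on the other strand).
HMGCS1: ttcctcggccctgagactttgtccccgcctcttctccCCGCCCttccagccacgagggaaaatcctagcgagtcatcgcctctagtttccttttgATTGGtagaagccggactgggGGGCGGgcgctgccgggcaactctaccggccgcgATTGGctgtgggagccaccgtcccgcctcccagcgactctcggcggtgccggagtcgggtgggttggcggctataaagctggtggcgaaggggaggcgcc
MVD: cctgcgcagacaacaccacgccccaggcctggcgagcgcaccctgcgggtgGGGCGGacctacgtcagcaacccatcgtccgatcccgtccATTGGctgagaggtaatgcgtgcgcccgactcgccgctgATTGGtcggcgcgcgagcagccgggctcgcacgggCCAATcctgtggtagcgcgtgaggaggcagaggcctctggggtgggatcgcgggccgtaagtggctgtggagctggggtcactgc
FDPS: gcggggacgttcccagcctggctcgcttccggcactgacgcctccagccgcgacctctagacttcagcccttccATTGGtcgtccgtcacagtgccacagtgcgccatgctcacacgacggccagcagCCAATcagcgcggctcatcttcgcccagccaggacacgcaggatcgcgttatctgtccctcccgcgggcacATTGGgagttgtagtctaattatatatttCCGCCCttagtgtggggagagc
The HMGCS1 window held 2 CCAAT boxes and 2 GC boxes, and the MVD and FDPS windows each held 3 CCAAT boxes and 1 GC box, with no overlap between marked matches. Promoter entries were found for 7 of the 8 members, with 12 start sites in all. A CCAAT box stood in 7 of the 12 windows, against 32% of 35116 RefSeq windows of the same length. Counted by gene, 6 of the 7 members had it in at least 1 window, and no share by gene was computed over all genes. The second HMGCS1 window held 0 CCAAT boxes. A GC box stood in 11 of the 12 windows, against 42.6% of all. Some windows of the same gene overlapped, and the shares of windows were not tested. The sterol response letters TCACNCCAC, searched on both strands, were in 0 of the 12 windows and in 0.883% of all, which says only that these exact letters are not in these windows. HMGCS1, which rose, and FDPS, which did not pass, both carried CCAAT and GC letters.

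Most markers of mesenchymal breast cancer cells were bright and most luminal ones dim. VIM lay between 11.76 and 12.48 and CD44 between 10.84 and 11.49 on the log2 scale, while ESR1 (4.45 to 5.33), PGR (4.21 to 5.00) and CDH1 (4.41 to 5.18) were below the lowest array median on every array. The other luminal markers were higher, with ERBB3 at 5.54 to 6.28, GATA3 at 5.93 to 6.85 and FOXA1 at 6.80 to 7.60. Of the other mesenchymal markers MSN was at 11.47 to 12.28, AXL at 10.53 to 11.80 and ZEB1 at 8.10 to 8.72. TWIST1, also on the mesenchymal list, was dimmer at 6.68 to 7.22, overlapping the luminal marker FOXA1. Array medians over all probe sets lay between 6.19 and 6.33. The array labelled zoledronate 30 µM 48 h replicate 2 stood farthest from the others of its group, by a root mean square of 0.341 against 0.259 for the next array and a median of 0.208. The 48 h results for the members and gene lists are therefore given with it and without it.

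**Figure D1:**
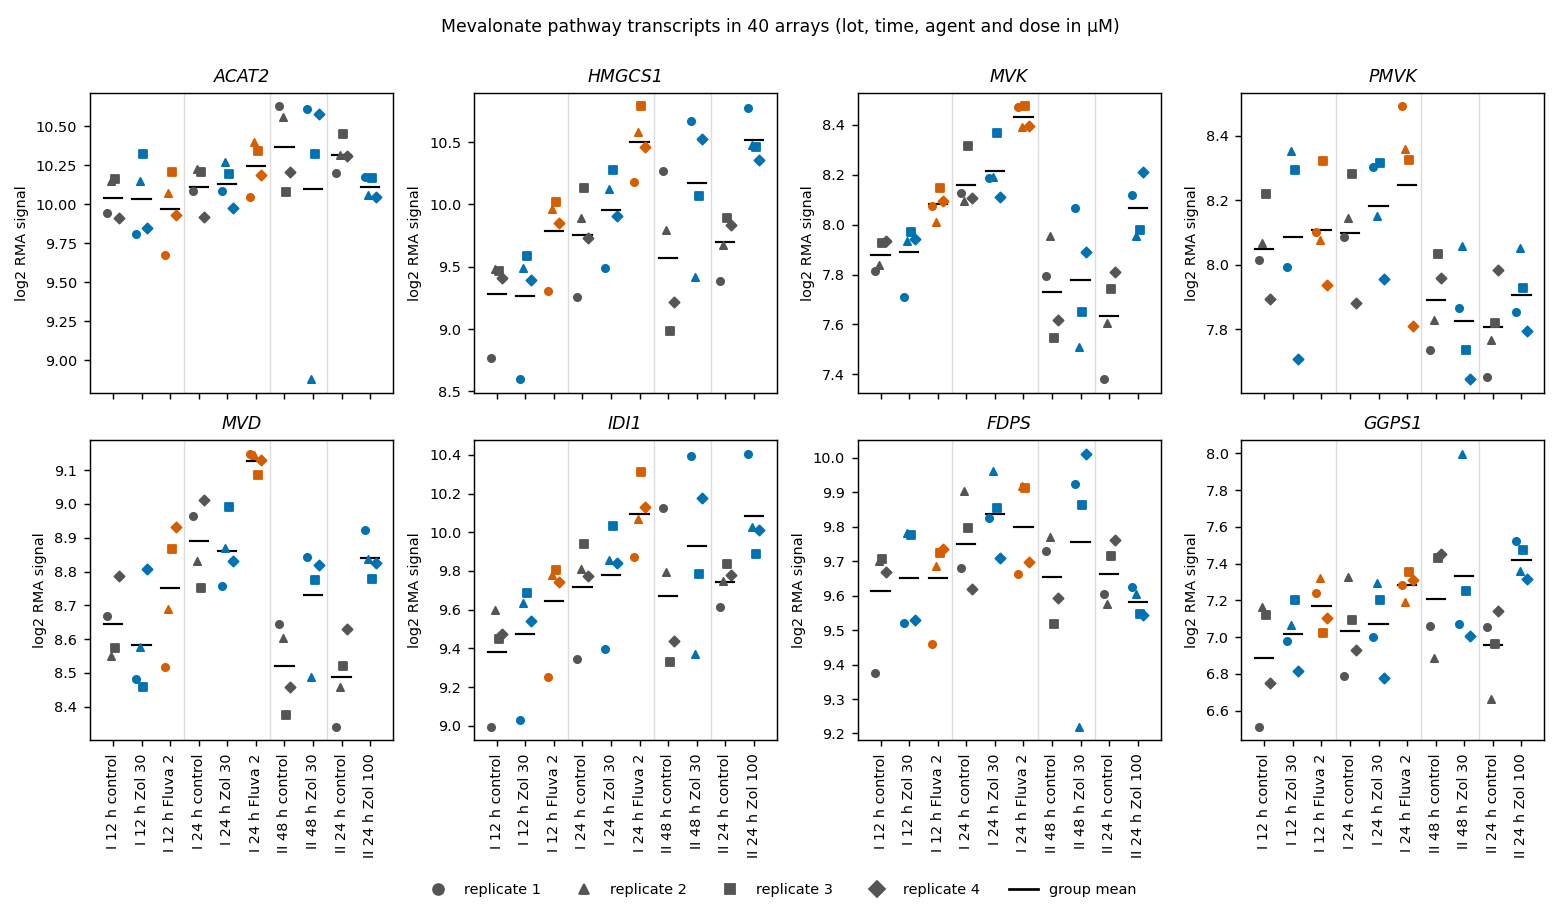
Log2 signal of each of the 8 transcripts (vertical axes, which differ in scale between panels) in the 10 groups (horizontal axis, by lot, time, agent and dose in µM). Points are single arrays, symbols mark the replicate number, and black lines are group means. The 4 HMGCS1 values lie between 10.36 and 10.78 with 100 µM zoledronate, above the 9.39 to 9.89 of their controls, and ACAT2 in replicate 2 of zoledronate at 48 h lies alone at 8.88.

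Zoledronate at 30 µM left the 8 transcripts near their controls at 12 h and 24 h. HMGCS1, which makes HMG-CoA, was at 8.60, 9.49, 9.59 and 9.39 in replicates 1 to 4 after 12 h of zoledronate and at 8.77, 9.48, 9.47 and 9.41 in the controls. After 24 h it was at 9.49, 10.13, 10.28 and 9.91 with zoledronate and at 9.26, 9.89, 10.14 and 9.73 in the controls. The groups overlapped at both times, although each of the 4 treated arrays at 24 h lay above its own control, by 0.14 to 0.23. The difference was -0.02 ± 0.16 at 12 h and 0.20 ± 0.16 at 24 h, with a 95% interval at 24 h of -0.14 to 0.54. No member passed at either time (limma, adjusted p = 1.0 and 0.999 for each), 0 of 8 had an unadjusted p under 0.05, and 0% of all genes were called, although 511 and 866 genes had an unadjusted p under 0.05. None of the 8 members had non-overlapping groups at 12 h or at 24 h, against 0.804% and 1.79% of all genes. FDPS, the transcript of zoledronate's own target, differed by 0.04 ± 0.10 at 12 h and by 0.09 ± 0.10 at 24 h, with a 95% interval at 24 h of -0.12 to 0.29. The largest of the remaining differences at either time was 0.13 ± 0.16, for GGPS1 at 12 h. A positive difference was seen in 5 of 8 members at 12 h and in 7 of 8 at 24 h. Besides HMGCS1, the members MVK, PMVK, IDI1 and FDPS were higher in 4 of 4 pairs at 24 h, FDPS by 0.06 to 0.14.

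With fluvastatin at 2 µM for 12 h no member passed the adjusted test, and 7 of 8 had a positive difference. HMGCS1 stood at 9.31, 9.97, 10.02 and 9.85, above its own control in all 4 pairs by 0.44 to 0.55, although the low control of replicate 1 had a treated partner below the other controls. The difference was 0.50 ± 0.16 (adjusted p = 0.149), which placed it at position 67 of 18417 genes ordered from the largest positive difference down. IDI1, the isomerase, differed by 0.27 ± 0.12 and mevalonate kinase MVK by 0.20 ± 0.09, each higher in 4 of 4 pairs. MVK was the 1 member whose treated arrays (8.01 to 8.15) did not overlap the controls (7.81 to 7.93), against 4.46% of all genes. Called members numbered 0 of 8 in the limma fit, against 0.874% of all genes, and 3 had an unadjusted p under 0.05. Without the pair of zoledronate 30 µM 48 h replicate 2, which narrows the spread shared by all comparisons, HMGCS1 passed with the same difference (adjusted p = 0.0308), with 1.53% of all genes called.

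At 24 h of fluvastatin HMGCS1, IDI1 and MVK rose, and every member had a positive difference. HMGCS1 reached 10.18, 10.58, 10.79 and 10.46, clear of its 24 h controls, a rise of 0.75 ± 0.16 or 1.68-fold (adjusted p = 0.00514) seen in 4 of 4 pairs. IDI1 was at 9.87, 10.07, 10.31 and 10.13 against 9.34, 9.81, 9.94 and 9.77, so the groups overlapped while each pair rose by 0.26 to 0.53. Its mean rise was 0.38 ± 0.12 (adjusted p = 0.0396). MVK was at 8.47, 8.39, 8.47 and 8.39 against 8.13, 8.09, 8.31 and 8.11, with no overlap, a rise of 0.27 ± 0.09 (adjusted p = 0.0498) that lay at the edge of the threshold of 0.05. Called members were 3 of 8, all higher, against 10.5% of all genes called and 6.71% that rose.

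The decarboxylase MVD, which makes isopentenyl diphosphate, was tightly grouped at 9.15, 9.15, 9.09 and 9.13 with fluvastatin at 24 h and at 8.96, 8.83, 8.75 and 9.01 in the controls. Its groups did not overlap, yet the difference of 0.24 ± 0.09 missed the threshold (adjusted p = 0.0832). HMGCS1, MVK and MVD were the 3 members with higher, non-overlapping groups, against 4.61% of all genes (8.41% with no overlap in either direction). FDPS, with 9.66, 9.92, 9.91 and 9.70 against 9.68, 9.90, 9.80 and 9.62, differed by 0.05 ± 0.10 with a 95% interval of -0.16 to 0.25. Of the rest, phosphomevalonate kinase PMVK differed by 0.15 ± 0.10, GGPS1 by 0.25 ± 0.16 and the thiolase ACAT2 by 0.13 ± 0.18, none of them passing. The median over the 8 members was 0.24, beside -0.01 over all genes.

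The fluvastatin calls at 24 h were lost without the pairing of arrays and in some fits with fewer replicates, while the differences stayed positive. Fitted without the pairing, HMGCS1 (adjusted p = 0.0888), MVK (0.131) and IDI1 (0.296) all missed the threshold. Leaving out replicate 1 of every group gave HMGCS1 0.69 (adjusted p = 0.0898), MVK 0.25 (0.245) and IDI1 0.33 (0.286). HMGCS1 still passed without replicate 2, 3 or 4. MVK and IDI1 missed without replicate 3 (0.31 and 0.38, adjusted p = 0.126 and 0.147) or replicate 4 (0.27 and 0.39, adjusted p = 0.186 and 0.111). With the pair of the outlying 48 h array left out, MVD passed as well (adjusted p = 0.043), with 13.7% of all genes called.

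**Figure D2:**
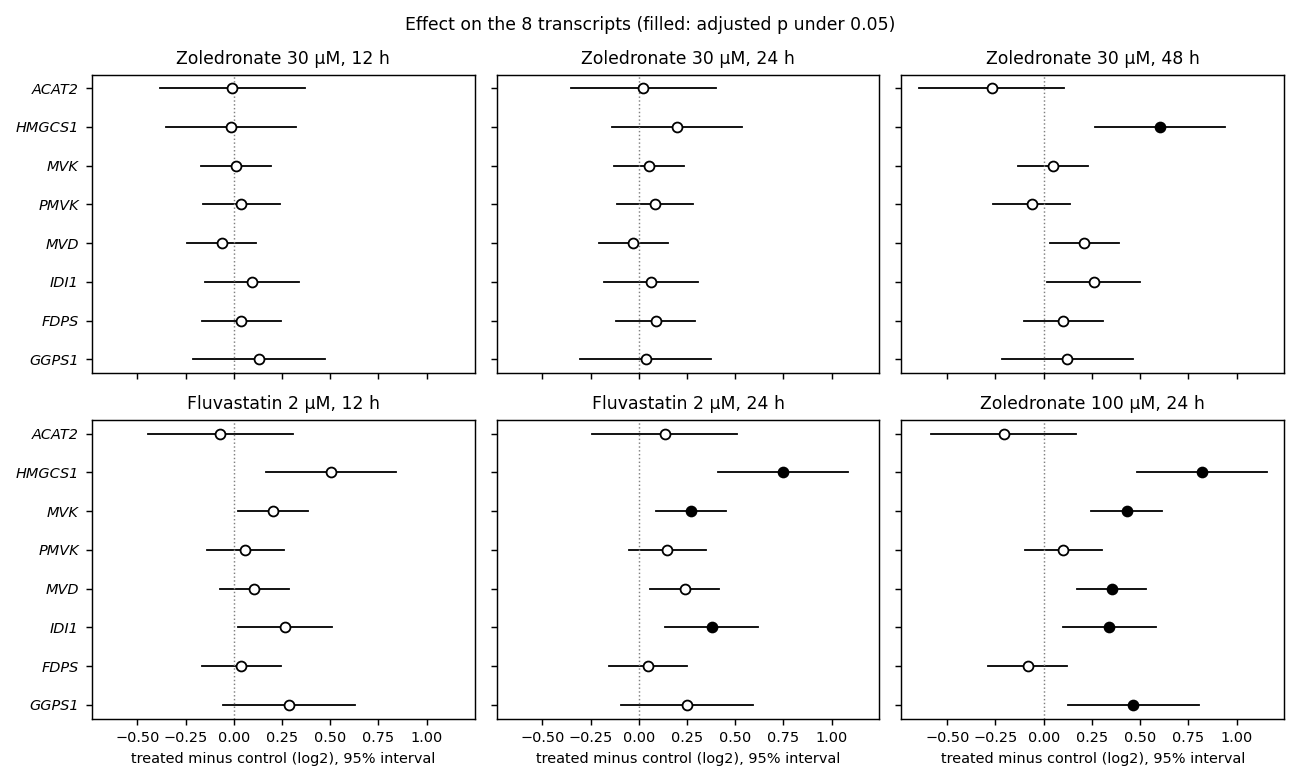
Treated minus control difference on the log2 scale (horizontal axis) for the 8 genes (vertical axis) in the 6 comparisons, with 95% intervals from the limma fit over 40 arrays. Filled points have an adjusted p under 0.05: none with 30 µM zoledronate at 12 h or 24 h, 1 at 48 h, none and 3 with fluvastatin at 12 h and 24 h, and 5 with 100 µM zoledronate.

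By 48 h of 30 µM zoledronate HMGCS1 was the 1 member of 8 that rose, against 7.59% of all genes called and 3.16% that rose. It was at 10.67, 9.42, 10.07 and 10.52 with zoledronate and at 10.27, 9.80, 8.98 and 9.22 in the controls. The groups overlapped, and 3 of 4 pairs were higher while replicate 2 was lower by 0.38. The rise was 0.60 ± 0.16, or 1.52-fold (limma, adjusted p = 0.0249), with a standard error pooled over all 6 comparisons. That pooled error is narrower than the spread of the 48 h pairs, which ran from -0.38 to 1.31. Fitted to only the 48 h arrays, the rise was 0.60 ± 0.25 and did not pass (limma, adjusted p = 0.39). IDI1 (0.26 ± 0.12, adjusted p = 0.196) and MVD (0.21 ± 0.09, adjusted p = 0.145) were also positive but missed the threshold. None of the 8 members had non-overlapping groups, against 8.27% of all genes. Without replicate 2, MVD and FDPS had, against 18.6% of all genes.

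Replicate 2 differed from the other treated arrays in several members. Its ACAT2 value was 8.88 where the other treated arrays were at 10.61, 10.32 and 10.58. Its FDPS value was 9.22 against 9.93, 9.86 and 10.01, and its GGPS1 value was 8.0, against 7.07, 7.25 and 7.01. With that array and its control left out, a choice made after seeing the data, 4 members rose. In that setting 3.72% of all genes rose and 9% were called in either direction. HMGCS1 rose by 0.93 ± 0.13 (adjusted p = 0.000254), IDI1 by 0.49 ± 0.10 (0.00326), FDPS by 0.32 ± 0.07 (0.00482) and MVD by 0.32 ± 0.09 (0.0259). ACAT2 and GGPS1 changed sign, from -0.27 to 0.20 and from 0.12 to -0.21, without passing either way. Leaving out another replicate number ended the HMGCS1 call: the difference was 0.67 without replicate 1 (adjusted p = 0.0725), 0.44 without replicate 3 (0.263) and 0.37 without replicate 4 (0.249). So did dropping the pairing (adjusted p = 0.241).

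**Figure D3:**
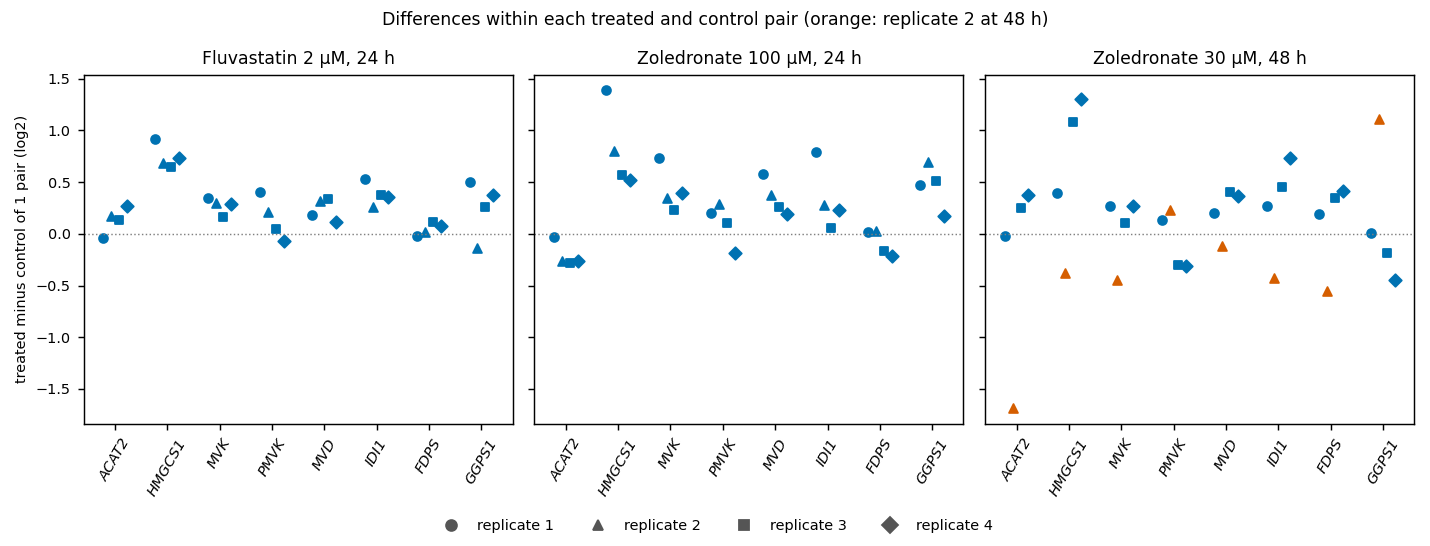
Difference on the log2 scale within each pair of treated and control arrays (vertical axis) for the 8 genes (horizontal axis) with fluvastatin at 24 h, 100 µM zoledronate at 24 h and 30 µM zoledronate at 48 h. Symbols mark replicates and orange marks replicate 2 at 48 h, where ACAT2 differed by -1.68 and GGPS1 by 1.11 while the other 3 pairs lay between -0.45 and 0.37 for these genes.

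With zoledronate at 100 µM for 24 h, 5 members rose, namely HMGCS1, MVK, MVD, IDI1 and GGPS1, while ACAT2, PMVK and FDPS did not pass. HMGCS1 was at 10.78, 10.48, 10.46 and 10.36 against 9.39, 9.68, 9.89 and 9.84, a rise of 0.82 ± 0.16 or 1.77-fold (adjusted p = 0.000346). MVK was at 8.12, 7.95, 7.98 and 8.21 against 7.38, 7.61, 7.74 and 7.81, a rise of 0.43 ± 0.09 (adjusted p = 0.000452). MVD was at 8.92, 8.84, 8.78 and 8.83 against 8.34, 8.46, 8.52 and 8.63, a rise of 0.35 ± 0.09 (adjusted p = 0.00241). None of these 3 genes had overlapping groups, and each was higher in 4 of 4 pairs. Called members were 5 of 8, all higher, to be read against a background of 32% of all genes called and 15.3% risen.

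The synthase GGPS1, at 7.52, 7.36, 7.48 and 7.32 against 7.05, 6.66, 6.96 and 7.14, rose by 0.47 ± 0.16 (adjusted p = 0.0321). IDI1, at 10.41, 10.03, 9.89 and 10.01 against 9.62, 9.75, 9.83 and 9.78, rose by 0.34 ± 0.12 (adjusted p = 0.0278), with replicate 1 carrying the largest pair difference of 0.79. Both sets of treated arrays lay above their controls without overlap. ACAT2 lay below its controls without overlap, at 10.04 to 10.17 against 10.20 to 10.45, but its difference of -0.21 ± 0.18 did not pass (adjusted p = 0.455). Groups did not overlap for 6 of 8 members, against 33% of all genes. FDPS was at 9.62, 9.60, 9.55 and 9.55 against 9.60, 9.57, 9.71 and 9.76, a difference of -0.08 ± 0.10 with a 95% interval of -0.29 to 0.12. PMVK differed by 0.10 ± 0.10, with overlapping groups. The median over the 8 members was 0.35, beside 0.01 over all genes.

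HMGCS1, MVK and MVD kept their calls at 100 µM under all 12 alternative settings run. IDI1 lost its call without replicate 1 (0.19, adjusted p = 0.366), without replicate 4 (0.37, 0.0505) and without the pairing (adjusted p = 0.21). GGPS1 lost its call without replicate 1 (0.46, adjusted p = 0.111) or replicate 3 (0.45, 0.128). ACAT2 passed as lower when the pair of the outlying 48 h array was left out of the shared spread (adjusted p = 0.019), with 34.6% of all genes called.

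The agents were compared at matched times in lot I, where they share the control arrays, so the difference is that of zoledronate from fluvastatin directly. At 24 h HMGCS1 was lower with 30 µM zoledronate than with 2 µM fluvastatin by 0.55 on the log2 scale, a difference of -0.55 ± 0.16 (95% interval -0.89 to -0.21, adjusted p = 0.041). The zoledronate arrays (9.49 to 10.28) and the fluvastatin arrays (10.18 to 10.79) overlapped. It was the 1 member of 8 called, against 7.23% of all genes in either direction and 4.3% lower with zoledronate. MVD (-0.27 ± 0.09, adjusted p = 0.0649), IDI1 (-0.31 ± 0.12, 0.112) and MVK (-0.22 ± 0.09, 0.146) differed in the same direction without passing. FDPS differed by 0.04, with an interval of -0.16 to 0.24. At 12 h the HMGCS1 difference of -0.52 ± 0.16 did not pass (adjusted p = 0.143), and called members were 0 of 8 against 0.738% of all genes, with 2 at an unadjusted p under 0.05. The 24 h call was lost without the pairing (adjusted p = 0.312) and without replicate 1 (-0.50, 0.307), replicate 3 (-0.56, 0.148) or replicate 4 (-0.55, 0.11). Without the pair of the outlying 48 h array the members called at 24 h were 4, namely HMGCS1, MVK, MVD and IDI1, with 9.66% of all genes called.

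Times and doses of 1 agent were compared as differences between effects. The effect of fluvastatin on HMGCS1 was larger at 24 h than at 12 h by 0.24 ± 0.23, with an interval of -0.23 to 0.72. Over this contrast 0 of 8 members and 0% of all genes were called, although 2014 genes had an unadjusted p under 0.05, none of them a member. Zoledronate at 30 µM was in lot I at 24 h and in lot II at 48 h, so time and lot cannot be told apart. There the HMGCS1 effect was larger by 0.40 ± 0.23 at 48 h (adjusted p = 0.407), with 0 of 8 members called against 0.407% of all genes and 0 members at an unadjusted p under 0.05. That difference was 0.73 (adjusted p = 0.0335) without the pair of the outlying array, with 2.11% of all genes called.

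From 30 µM to 100 µM zoledronate at 24 h, the effect on MVK was larger by 0.38 ± 0.12 (adjusted p = 0.0334) and that on MVD by 0.38 ± 0.12 (adjusted p = 0.0286). The HMGCS1 effect was larger by 0.62 ± 0.23, which missed the threshold (adjusted p = 0.0605) and passed in 5 alternatives. Called members were 2 of 8, against 20.3% of all genes in either direction and 9.2% with a larger value at 100 µM. Dose and lot cannot be told apart here: the 24 h controls of the lots did not overlap for MVK (8.09 to 8.31 in lot I, 7.38 to 7.81 in lot II) or for MVD (8.75 to 9.01 and 8.34 to 8.63). Without the pairing the adjusted p was 0.0789 for MVK and 0.0532 for MVD. The effects were 0.28 (MVK, adjusted p = 0.21) and 0.24 (MVD, 0.285) without replicate 1, and 0.37 (0.145) and 0.38 (0.111) without replicate 4. MVK also missed without replicate 3 (0.44, adjusted p = 0.0807) and MVD without replicate 2 (0.39, 0.0638).

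Set against fluvastatin at 24 h, 100 µM zoledronate gave differences between -0.34 (ACAT2) and 0.22 (GGPS1) over the 8 members. For HMGCS1 the difference was 0.07 with a 95% interval of -0.41 to 0.55, wide enough to hold sizeable differences either way. Called members were 0 of 8 against 5.78% of all genes, with 0 at an unadjusted p under 0.05, and agent and lot cannot be told apart. ACAT2 passed in this contrast without the pair of the outlying 48 h array (-0.34, adjusted p = 0.0295), with 8.45% of all genes called.

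Along the pathway the calls fell on different steps, and the members were not tested against each other. At the entry HMGCS1 had the highest difference of the 8 with fluvastatin at both times, with 30 µM zoledronate at 48 h and with 100 µM zoledronate, whereas ACAT2 was never called in the fit to all arrays. HMGCS1 group means ran from 9.27 ± 0.45 (SD, n = 4) with zoledronate at 12 h to 10.50 ± 0.25 with fluvastatin at 24 h and 10.52 ± 0.18 with 100 µM zoledronate. Those last means differ by far less than their SDs. Among the controls alone HMGCS1 ran from 9.28 ± 0.34 in lot I at 12 h to 9.75 ± 0.37 in lot I at 24 h, with lot II at 9.57 ± 0.58 (48 h) and 9.70 ± 0.23 (24 h) between them. Neighbours in this order of controls do not differ beyond their SDs.

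Of the enzymes that turn mevalonate into isopentenyl diphosphate, MVK passed with fluvastatin at 24 h and with 100 µM zoledronate, MVD with 100 µM zoledronate only, and PMVK in none of the 6 comparisons. PMVK lay between 7.64 and 8.49 over all 40 arrays and its differences in the 6 comparisons were between -0.06 and 0.15. FDPS differed by -0.08 to 0.10 over the same comparisons with all arrays, and by 0.32 at 48 h without replicate 2, and its probe sets shared with FDPSP2 differed by -0.09 to 0.08 with none passing. Signals of those shared probe sets (means 7.79 and 8.45) cannot be assigned between FDPS and the pseudogene.

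Control cells alone varied in HMGCS1 from 8.77 to 10.27, and IDI1 moved with it. The share of all genes that moved with HMGCS1 as closely was not computed, so these relations are not shown to be particular to the members. Over the 16 control arrays Pearson's r between HMGCS1 and IDI1 was 0.97 and Spearman's rho 0.97. The permutation p was 1e-05, the smallest that 100000 permutations can give, and 7e-05 after Benjamini-Hochberg adjustment over 7 relations. That permutation treats the 16 arrays as exchangeable, although they come from 2 lots and 3 times: in lot I HMGCS1 was higher at 24 h than at 12 h in 4 of 4 replicates, and replicate 1 was the lowest at both times. With values centred on their control group and arrays permuted only within groups, a setting added after seeing the data, r was 0.98 (exact permutation p = 9.04e-06, adjusted 6.33e-05). The r was 0.95 without the 2 arrays farthest from the median of HMGCS1, 0.98 over the 8 arrays of lot I (exact permutation p = 0.000149) and 0.99 over the 8 of lot II (9.92e-05). The permutations within a lot, here and for the other members, exchanged arrays across times. No permutation, within groups included, kept the arrays of a replicate number together. FDPS, not called in any of the 6 treated comparisons with all arrays, also moved with HMGCS1 among controls: r was 0.78 and rho 0.83 (permutation p = 0.00026, adjusted 0.00091). It was 0.72 without the 2 farthest arrays, 0.84 in lot I and 0.81 in lot II (exact permutation p = 0.0216 and 0.0156), and 0.77 within groups (exact permutation p = 0.00372, adjusted 0.013).

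For ACAT2 the r was 0.66 and rho 0.65 (permutation p = 0.00599 and 0.00781, adjusted 0.014 for r), and 0.45 without the 2 farthest arrays, so this relation leaned on those arrays. Within lots it was 0.55 (lot I, exact permutation p = 0.174) and 0.91 (lot II, 0.000843), and within groups 0.79 (exact permutation p = 0.00994, adjusted 0.0189). The other members gave r of 0.38 (MVK), 0.22 (MVD), 0.12 (GGPS1) and -0.10 (PMVK), with adjusted permutation p from 0.253 to 0.701. Within groups MVK had r of 0.68 (exact permutation p = 0.0108, adjusted 0.0189), and for MVD, GGPS1 and PMVK the adjusted p was 0.503 to 0.871. GGPS1 had r of 0.78 in lot I and -0.59 in lot II (exact permutation p = 0.025 and 0.117). In the same order MVK had 0.76 and 0.66 (0.0228 and 0.0789), MVD 0.22 and 0.83 (0.611 and 0.0126) and PMVK 0.41 and -0.46 (0.327 and 0.247). The p-values within lots were not adjusted. Time, day and array processing are shared within these arrays, and their part in the relations was not tested.

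**Figure D4:**
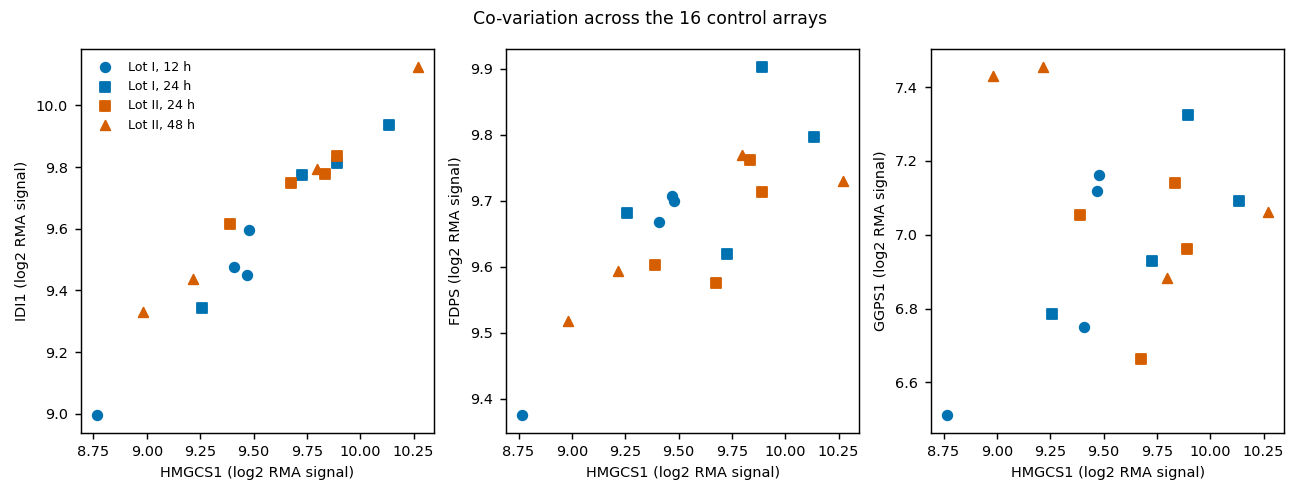
Log2 signal of IDI1, FDPS and GGPS1 (vertical axes) against that of HMGCS1 (horizontal axis) in the 16 control arrays, with colours for lot and symbols for time. IDI1 follows HMGCS1 closely (r = 0.97), FDPS less so (r = 0.78), and GGPS1 shows no common line over both lots (r = 0.12).

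Genes downstream of FDPS in sterol synthesis were read from a list of 12, of which 9 were measured by a probe set of their own and the others were not analysed here. With fluvastatin at 24 h 6 of the 9 rose, against 6.71% of all genes, with a median of 0.34, among them the sterol oxidase MSMO1 (0.69 ± 0.13), the reductase TM7SF2 (0.51 ± 0.12), SC5D (0.42 ± 0.10) and the cyclase LSS (0.33 ± 0.07). With 100 µM zoledronate 3 of 9 rose, against 15.3% of all genes, TM7SF2 by 0.87 ± 0.12, LSS by 0.63 ± 0.07 and MSMO1 by 0.49 ± 0.13, with a median of 0.23. At 48 h of 30 µM zoledronate LSS alone of the 9 rose, by 0.23 ± 0.07, against 3.16% of all genes. It was again the only one of the 9 without replicate 2 (0.31 ± 0.07), against 3.72%. This list and the 3 that follow had 0 genes called with 30 µM zoledronate at 12 h or 24 h or with fluvastatin at 12 h. The shares of all genes called there were 0%, 0% and 0.874%.

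The SREBP system, here the factors, their escort and anchor proteins and known target genes outside the pathway, was measured for 13 of 13 genes. With fluvastatin at 24 h 5 rose, against the same 6.71% of all genes, led by the acetyl-CoA synthetase ACSS2 (0.71 ± 0.09) and the sterol carrier STARD4 (0.48 ± 0.08), and the anchor gene INSIG1 rose by 0.40 ± 0.10. At 48 h of zoledronate 3 rose, against 3.16% of all genes, ACSS2 by 0.59 ± 0.09, STARD4 by 0.41 ± 0.08 and the desaturase FADS2 by 0.24 ± 0.07. Without replicate 2 those 3 rose together with INSIG1, FASN and FADS1, and MBTPS2 fell by 0.33, all named after their values were seen. In that setting 3.72% of all genes rose and 9% were called in either direction. With 100 µM zoledronate 10 rose and 1 fell, against 15.3% and 16.6% of all genes, with a median of 0.33. ACSS2 rose there by 1.14 ± 0.09, INSIG2 by 0.91 ± 0.06 and SREBF1 by 0.63 ± 0.07, while the 1 that fell, named after its value was seen, was the escort SCAP, which fell by 0.16 on the log2 scale.

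Of 12 listed genes that use polyprenyl diphosphates, 10 were measured. With 100 µM zoledronate 5 fell, 1 rose and 4 did not pass, against 16.6% of all genes fallen and 15.3% risen, with a median of -0.14. PDSS1, which makes the ubiquinone side chain, fell by 0.65, RABGGTB, a subunit of the enzyme that prenylates Rab proteins, by 0.49, and COX10, which farnesylates haem, by 0.37. RABGGTA, the partner subunit of RABGGTB, rose by 0.24. At 48 h of 30 µM zoledronate 3 fell, namely PDSS1, COQ2 and COX10, against 4.43% of all genes. Without replicate 2 only COX10 fell, with 9% of all genes called in either direction. With fluvastatin none passed at 12 h or 24 h, against 0.874% and 10.5% of all genes called. Relatives outside the cytosolic route (ACAT1, HMGCLL1 and IDI2 measured, of 5 listed) had 0 genes called in all 6 comparisons, where the share of all genes called ran from 0% to 32%.

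**Figure D5:**
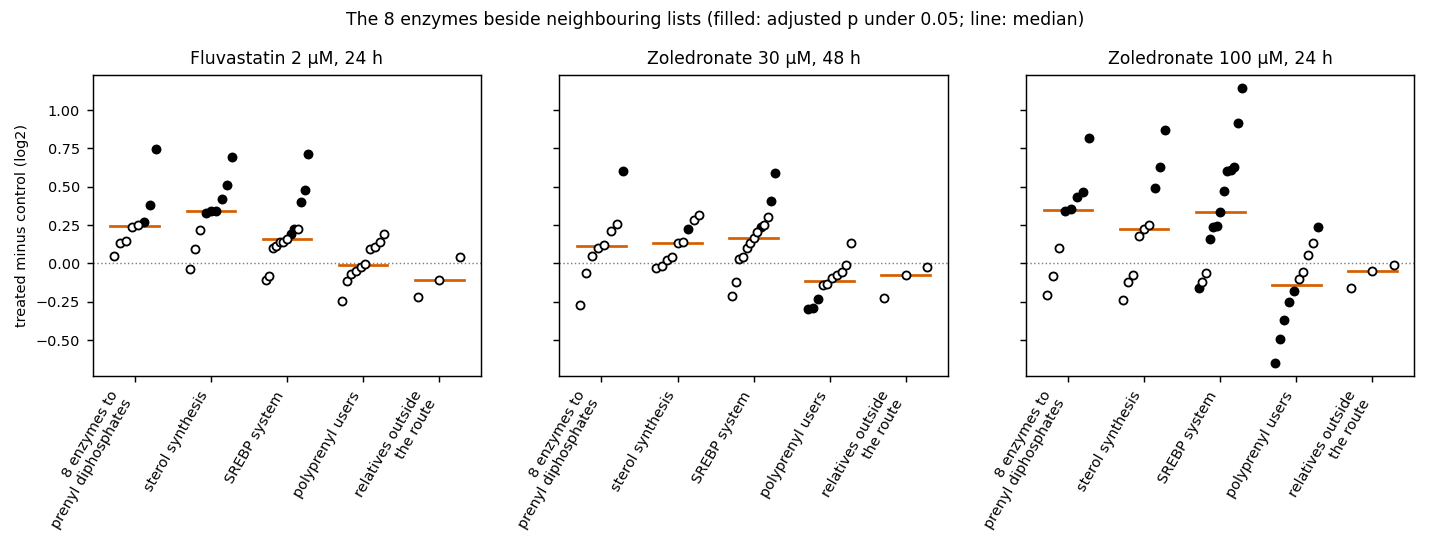
Treated minus control difference on the log2 scale (vertical axis) for each measured gene of 5 lists (horizontal axis) with fluvastatin at 24 h, zoledronate 30 µM at 48 h and zoledronate 100 µM at 24 h. Filled points passed an adjusted p of 0.05 and orange lines are medians, which for the 8 enzymes are 0.24, 0.11 and 0.35.

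Some markers of other cell types rose in the comparisons in which members rose. Of 5 blood and 6 stromal or endothelial markers measured, LYZ, CD14 and PECAM1 rose with fluvastatin at 24 h (by 0.71, 0.52 and 0.98) and with 100 µM zoledronate (by 1.93, 0.42 and 1.30), and LYZ and PECAM1 at 48 h (by 0.74 and 0.59, and by 0.97 and 0.63 without replicate 2). Of 2 bone markers measured CTSK rose at 100 µM, by 0.51, and of 6 luminal markers ERBB3 rose there, by 0.27. Of 6 mesenchymal markers AXL fell with fluvastatin at 24 h, at 48 h and at 100 µM (by 0.50, 0.31 and 0.73), and MSN and ZEB1 rose at 100 µM (by 0.21 and 0.23). These calls stand beside 6.71% of all genes risen and 3.77% fallen with fluvastatin at 24 h. At 48 h 3.16% of all genes rose (3.72% without replicate 2) and 4.43% fell, and at 100 µM 15.3% rose and 16.6% fell. The mean log2 signal of the blood list was 5.02 to 5.34 with 100 µM zoledronate and 4.63 to 4.84 in its controls, that of the stromal list 5.06 to 5.14 and 4.78 to 4.92, and that of the bone list 6.23 to 6.57 and 5.78 to 6.24. With fluvastatin at 24 h the blood list was at 4.79 to 5.10 (controls 4.66 to 4.85) and the stromal list at 4.93 to 5.25 (controls 4.91 to 4.98), and at 48 h they were at 4.94 to 5.15 (4.70 to 5.01) and 4.92 to 5.09 (4.78 to 5.01). Median differences over the genes of a list were 0.04 (blood), 0.01 (stromal) and 0.36 (bone) at 100 µM. They were -0.07 (blood) and -0.005 (stromal) with fluvastatin at 24 h, and -0.005 and 0.01 at 48 h. At 100 µM the blood and stromal list means thus lay above their controls without overlap, while the medians over their genes were 0.04 and 0.01. The bone list, of 2 genes, had a median of 0.36 there, and its means overlapped those of the controls. Over all 40 arrays the levels within these lists ran from PTPRC at 3.07 to 3.83, DCN at 3.16 to 3.85 and LUM at 2.68 to 3.59 up to COL1A1 at 7.06 to 7.47 and SP7 at 6.65 to 7.41. The part of other cells in the members' differences was not tested.

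For each member that passed in at least 1 comparison, the genes with the most similar pattern were found by the root mean square distance over the 24 pair differences, among 6427 genes called in at least 1 comparison. Fluvastatin and zoledronate differences in lot I share controls, and this is a description without a test. HMGCS1 was nearest to TUBA1A (0.191), a tubulin gene with near-identical relatives whose probes may not be separable, then SYTL4 (0.235) and KIF3C (0.246), beside a distance of 0.641 between HMGCS1 and no change. IDI1 was nearest to the sterol enzymes SQLE (0.122) and CYP51A1 (0.139), with IMPA2 between them (0.132), beside 0.338 from no change. MVK was nearest to ADD1 (0.119), CPNE2 (0.120) and RHOA (0.122), beside 0.271 from no change. MVD was nearest to PCOLCE (0.135), FADS2 (0.136) and FCHSD1 (0.142), and GGPS1 to SEL1L (0.192), BCLAF3 (0.207) and VPS41 (0.211). Without the outlying 48 h pair, over 23 pair differences, the 3 genes nearest to IDI1 were the same, and 2 of 3 were the same for HMGCS1 (APAF1 in place of KIF3C), for MVK (CXXC5 in place of CPNE2) and for MVD (JADE2 in place of FCHSD1). For GGPS1 all 3 were others, ZNF780A (0.174), PDCD4 (0.182) and EXOC1 (0.185). Among the 8 members the closest pair was MVK and IDI1 (0.157) and the farthest ACAT2 and GGPS1 (0.729). Without the outlying pair the closest were ACAT2 and FDPS (0.144) and the farthest HMGCS1 and PMVK (0.643).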

How the data were processed

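Transcript levels in MDA-MB-231 cultures were read on whole-transcript arrays. The authors deposited 1 table of log2 signals per probe set and array; per the submitters' processing notes it came from RMA in Affymetrix Power Tools 1.10.2, and limma was used. The genome build behind the probe annotation is not given in the sources used here, and arrays carry no read depth, so the number of arrays limits the precision. Of 33297 probe sets, 19460 named 1 gene, 1754 several and 12083 none; the brightest 1-symbol probe set was kept for each of 18417 genes. Limma 3.58.1 (R 4.3.3) was fitted to all 40 arrays, with 16 blocks of lot, time and replicate number and 6 treated effects, leaving 18 residual degrees of freedom; tests were two-sided with Benjamini-Hochberg adjustment over all genes at 0.05. The fit was tested on simulated data. The design text states that treated and control arrays were paired by day of measurement. Same-numbered arrays deviated together in lot I (r from 0.17 to 0.60, over 0.1 in 4 of 4 pairs of each comparison), less so at 48 h (-0.30 to 0.55, over 0.1 in 2 of 4) and at 100 µM (-0.09 to 0.26, 1 of 4). No arrays of a group were identical. The p-values measure the spread between cultures of 1 line, pooled over all 6 comparisons and not that of a single comparison. Named genes outside the 8 members were the up to 4 called genes of a list with the smallest p, and the 3 nearest in pattern to each called member. The members and lists were chosen with earlier results of these data known. Alternatives were median centring, a further quantile normalization, no pairing, a fit to only the arrays compared, leaving out the dimmest genes, mean of probe sets, all probe sets, each replicate number left out, and, added after seeing the data, the pair of zoledronate 48 h replicate 2 left out. Promoter windows came from RefSeq.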

Additional observations from a re-analysis of the deposited data

Results flagged for a closer look

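Of 128 sets of 4 values checked, 8 held a value apart from the other 3 by Dixon's criterion; chance alone marks about 1 in 20 sets. Among array signals (log2), ACAT2 was at 8.88 in replicate 2 of 30 µM zoledronate at 48 h, where the others lay between 10.32 and 10.61. In replicate 1 of the lot I 12 h controls HMGCS1 was at 8.77 (others 9.41 to 9.48) and FDPS at 9.38 (others 9.67 to 9.71). Replicate 1 was also low for IDI1 with fluvastatin at 12 h, at 9.25 (others 9.74 to 9.80), and for MVK with zoledronate at 12 h, at 7.71 (others 7.93 to 7.97). MVK was high in replicate 3 of the lot I 24 h controls, at 8.31 (others 8.09 to 8.13). Among differences within pairs, ACAT2 with 100 µM zoledronate differed by -0.03 in replicate 1 (others -0.28 to -0.26), and IDI1 with 30 µM zoledronate at 12 h by 0.24 in replicate 3 (others 0.03 to 0.07).

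The effect of zoledronate at 24 h differed between 100 µM and 30 µM by 0.38 for MVK and by 0.38 for MVD, by a test of the difference itself; dose and lot cannot be told apart.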

How the results depend on the processing

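None of the 96 member differences reversed a call under the 12 alternatives run. With 4 arrays a group, small differences were not detectable, and calls near 0.05 moved. Counts of members called that moved by over 1.5 times, or from or to 0, were these. Without the replicate block of the pairing they were 0 with fluvastatin at 24 h, 0 with zoledronate at 48 h, 0 for zoledronate minus fluvastatin at 24 h and 0 for 100 µM minus 30 µM, in place of 3, 1, 1 and 2; IDI1 at 100 µM was the other call lost. With only the arrays compared they were 0, 0, 2 and 4 in the same order, and 1 for zoledronate minus fluvastatin at 12 h in place of 0. With median centring they were 1 with fluvastatin at 24 h, 3 with 100 µM zoledronate in place of 5, 0 for zoledronate minus fluvastatin at 24 h and 1 for 100 µM minus 30 µM. Fitted over all probe sets they were 1 with fluvastatin at 24 h, 0 with zoledronate at 48 h, 0 for zoledronate minus fluvastatin at 24 h and 1 for 100 µM minus 30 µM. Without the dimmest genes they were 2 for zoledronate minus fluvastatin at 24 h. Leaving out replicates (5 ways) gave 0 to 1 with fluvastatin at 12 h, 0 to 4 at 24 h, 0 to 4 with zoledronate at 48 h, 3 to 6 at 100 µM, 0 to 1 and 0 to 4 for zoledronate minus fluvastatin at 12 h and 24 h, 0 to 1 for 48 h minus 24 h, 0 to 3 for 100 µM minus 30 µM and 0 to 1 for 100 µM zoledronate minus fluvastatin. Smaller changes were the loss of IDI1 at 100 µM with only the arrays compared (adjusted p = 0.0556), of GGPS1 at 100 µM over all probe sets (0.055) and of MVK with fluvastatin at 24 h under a further quantile normalization (0.0852), and the gain of HMGCS1 for 100 µM minus 30 µM under that normalization (0.0261) and without the dimmest genes (0.0388). The cause of these changes was not tested.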
